A study of Homo sapiens with 12 samples.

Results

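The miR-17-92a cluster consists of 6 miRNA hairpins that lie side by side in MIR17HG, a long non-coding RNA gene on chromosome 13. Its members here are the 8 mature miRNAs of these hairpins named hsa-miR-17-5p, hsa-miR-17-3p, hsa-miR-18a-5p, hsa-miR-18a-3p, hsa-miR-19a-3p, hsa-miR-20a-5p, hsa-miR-19b-3p and hsa-miR-92a-3p. They were chosen by name, not by their values, from the 2652 mature miRNAs listed for each library. All 8 had a mean above 100 CPM (counts scaled to the total miRNA reads of the library) over the libraries, as had 178 miRNAs in all, and every test was fitted on those 178. The prefix hsa- is left out below.

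The samples were SLAMseq libraries of small RNA from Huh7, a human hepatocellular carcinoma cell line. There were 12 libraries in 3 conditions of 4 libraries each, all of cells kept for 4 h in their treatment. Control cells received DMSO, the solvent, without 4-thiouridine (4SU). DMSO cells received DMSO together with 500 µM 4SU. PlaB cells received pladienolide B, an inhibitor of the splicing factor SF3B1, together with 500 µM 4SU. The labels and the methods of the study give different PlaB concentrations, so none is stated here. The methods describe 4 independent experiments, A to D, each with the 3 conditions, and replicates 1 to 4 are taken here as A to D. DMSO A and B gave few reads at first, so their libraries were also prepared anew and re-amplified. Their reads combine 3 sequencing runs, which the methods give for no other library. PlaB was not combined with the absence of 4SU, so PlaB differed from Control by both agents.

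4SU enters RNA in place of uridine while it is being made. After alkylation it is read as C, so a T>C conversion marks RNA made after 4SU was added. The T>C conversion rate is the number of T>C conversions divided by the number of sequenced T positions of that miRNA. It is given here as a percent. The comparison of DMSO with Control asks whether a miRNA was labelled above background, and that of PlaB with DMSO asks whether labelling differed when splicing was inhibited.

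One transcript carries all members of the cluster. Drosha and DGCR8, the Microprocessor, cut hairpins from the primary transcript, Dicer cuts the loop off, and one arm of the resulting duplex, the guide, is retained in an Argonaute protein while the other, the passenger, is mostly degraded. The guide finds its targets mainly through its seed, bases 2 to 8. The cluster is also called oncomiR-1. MYC drives its transcription, and it is amplified or highly expressed in many tumours, including liver cancer. The miR-17 family (miR-17 and miR-20a) and miR-18a repress inhibitors of the cell cycle and members of the TGF-β pathway, and miR-92a represses BCL2L11 (BIM), a pro-apoptotic protein.

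On GRCh38, GENCODE version 44 places MIR17HG at chr13:91347686-91397592 on the plus strand. The 6 hairpins span 787 bases, chr13:91350605-91351391, and the first starts 2919 bases from the start of the gene. Of 16 annotated MIR17HG transcripts, 11 span the hairpins, which are exonic in 3 of them and intronic in 8. The mature sequences below are those of RefSeq on GRCh38.p14, in cluster order, 5′ to 3′, with the seed in capitals. They are shown because the seeds set the families, because every U is a position at which a conversion can be read, and because some members differ from each other at exactly such positions. All 8 names matched a RefSeq entry.
miR-17-5p: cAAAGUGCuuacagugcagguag
miR-17-3p: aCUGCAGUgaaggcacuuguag
miR-18a-5p: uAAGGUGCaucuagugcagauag
miR-18a-3p: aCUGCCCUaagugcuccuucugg
miR-19a-3p: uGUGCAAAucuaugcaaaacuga
miR-20a-5p: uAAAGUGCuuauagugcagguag
miR-19b-3p: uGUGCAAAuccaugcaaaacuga
miR-92a-3p: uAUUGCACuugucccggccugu

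The members hold between 5 and 8 U. The number of T positions sequenced per read was close to the number of U in each sequence. It was for example 4.99 for miR-17-3p with its 5 U and 7.94 for miR-92a-3p with its 8. Reads therefore covered nearly every U, while bases before the first and after the last U are not seen in this count. miR-17-5p and miR-20a-5p share the seed AAAGUGC, which miR-106b-5p and miR-93-5p of the tested miRNAs also have. miR-19a-3p and miR-19b-3p share GUGCAAA with no other tested miRNA. The seed of miR-92a-3p, AUUGCAC, also occurs in miR-25-3p, miR-32-5p and miR-92b-3p. Counted from the 5′ end, miR-19a-3p and miR-19b-3p differ by the single substitution U11C, and miR-20a-5p and miR-17-5p by U1C and U12C. A miR-19a-3p read converted at position 11 therefore has the sequence of miR-19b-3p. How such reads were counted was not tested. miR-19b-3p and miR-92a-3p have a second, identical copy each in the miR-106a-363 cluster on chromosome X, and 89.8% and 97.5% of their reads mapped to more than 1 place. For the other 6 members this share was at most 1.30%.

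Libraries held 1667668 to 2393680 miRNA reads in Control, 1968612 to 3880241 in DMSO and 1522210 to 1979696 in PlaB. The hepatocyte miRNAs miR-122-5p, miR-122-3p, miR-192-5p and miR-194-5p summed to between 100894 and 153879 CPM in every library, and 5 miRNAs of blood and immune cells to at most 6.90 CPM. The pair of endothelial miRNAs, miR-126-3p and miR-126-5p, summed to 412 to 655 CPM, and the fibroblast and smooth muscle miRNAs miR-143-3p and miR-145-5p to 89.4 to 167 CPM. Their part in the results was not tested.

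Reads of the cluster were abundant and differed little between conditions. The 8 members together took 14.6 ± 1.44% of miRNA reads in Control (SD, n = 4), 15.3 ± 2.38% in DMSO and 14.5 ± 1.21% in PlaB. Since CPM are shares of all miRNA reads, fewer cells and less miRNA per cell cannot be told apart from them. Nearly all of this was miR-92a-3p, the BIM-repressing member at the 3′ end of the cluster, which ranked 2nd of all miRNAs by mean CPM. It was read at 140707, 114706, 146859 and 140913 CPM in Control replicates 1 to 4, at 176295, 127583, 122316 and 140511 CPM in DMSO and at 144858, 117799, 133596 and 142016 CPM in PlaB. These groups overlapped, with DMSO replicate 1 the highest.

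The members of the miR-17 family followed far below. miR-17-5p was read at 2816, 2959, 3121 and 2996 CPM in Control, 3328, 3046, 2851 and 2872 CPM in DMSO and 2762, 2727, 2656 and 3092 CPM in PlaB. miR-20a-5p was read at 2355, 2874, 3268 and 2584 CPM in Control, 2720, 3230, 3229 and 2712 CPM in DMSO and 2647, 2649, 2504 and 2530 CPM in PlaB. Between these neighbours the order held in 3 of 4 Control libraries and in 2 of 4 DMSO libraries, where their ranges overlapped, while in PlaB miR-17-5p was higher in all 4. Next in order by mean CPM were miR-19b-3p (2034 over all libraries), miR-18a-5p (1327) and miR-19a-3p (1042), of which the last 2 overlapped in every condition. The passenger arms miR-18a-3p (327 CPM) and miR-17-3p (102 CPM) came last and overlapped with no neighbour. miR-17-3p stood at the limit of the filter and was the lowest of the 178 miRNAs tested.

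**Figure D1:**
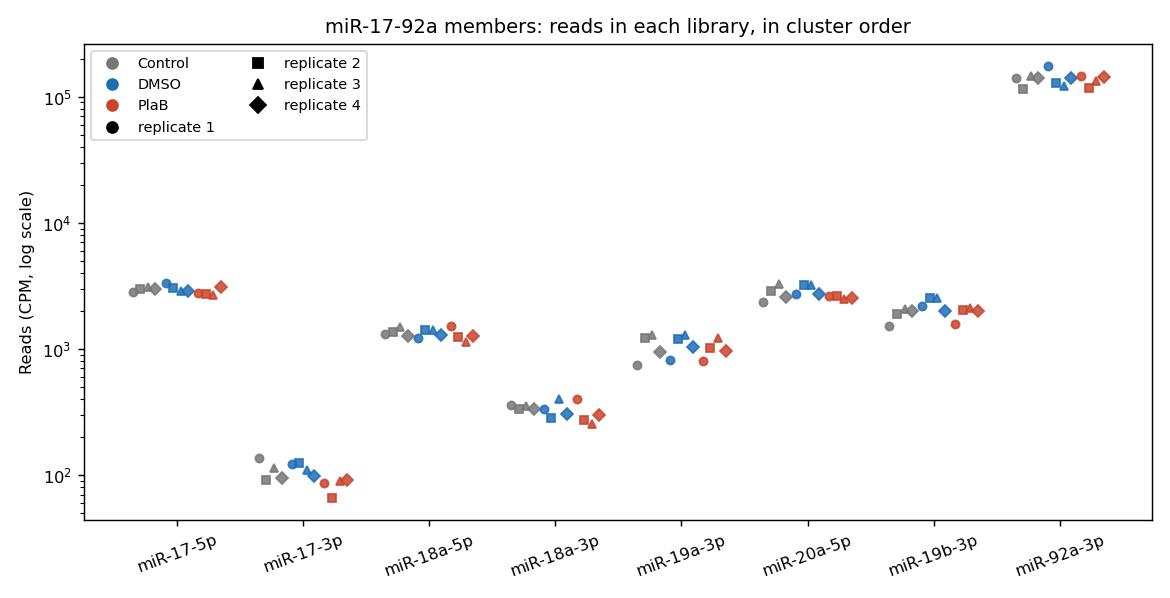
Reads of the 8 members in each library, in CPM on a log axis, in cluster order, with colour for the condition and marker shape for the replicate. miR-92a-3p sits between 114706 and 176295 CPM and miR-17-3p between 65.7 and 137 CPM, and the conditions of a member lie close together next to the distance between members.

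In edgeR's quasi-likelihood test with Benjamini-Hochberg adjustment, 0 of the 8 members differed in reads between PlaB and DMSO, against 1.12% of all miRNAs tested. It was also 0 of 8 for DMSO against Control (6.18% of all tested) and for PlaB against Control (6.74%). At an unadjusted p under 0.05 there was 1 member in each comparison. Of all 178 tested, 3 were higher and 6 lower at that level for PlaB against DMSO. For DMSO against Control they were 14 and 19, and for PlaB against Control 4 and 17. With DESeq2 0 members passed the adjusted threshold in each. All 8 members had a negative log2 fold change of reads in PlaB against DMSO, as had 108 of the 178 miRNAs tested. The 8 ranged from -0.47 to -0.07 with a median of -0.12, compared with a median of -0.03 over all tested miRNAs. The lowest was the passenger arm miR-17-3p. It was read at 137, 91.5, 113 and 95.1 CPM in Control, 123, 124, 109.9 and 98.0 CPM in DMSO and 86.7, 65.7, 89.7 and 90.5 CPM in PlaB. Each PlaB library was below each DMSO and each Control library, but the difference from DMSO did not pass (log2 fold change -0.47 ± 0.14 (SE), edgeR adjusted p = 0.195). With a mean of 102 CPM, miR-17-3p met the filter only through its Control and DMSO reads (109 and 114 CPM, against 83.2 in PlaB). Its lower reads in PlaB are therefore not independent of the filter.

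For miR-19b-3p the reads were 1521, 1880, 2061 and 1990 CPM in Control, 2191, 2530, 2516 and 2013 CPM in DMSO and 1567, 2038, 2110 and 1996 CPM in PlaB. DMSO was higher than Control in each of the 4 experiments although the groups overlapped. The log2 fold change of DMSO against Control was 0.33 ± 0.14 (SE), with an edgeR adjusted p of 0.201. Adding the experiment as a replicate block gave 0.33 and an adjusted p of 0.00748, and with uniquely mapping reads alone the adjusted p was 0.748. That last fit used few of its reads, since 84.8% to 93.0% in Control and 87.3% to 93.1% in DMSO mapped to more than 1 place. It therefore cannot settle whether the reads differed.

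T>C conversion rates of the cluster were higher with 4SU than without it and lower with PlaB than with DMSO. Summed over the 8 members, Control libraries had a T>C conversion rate of 0.0265 ± 0.00326% (SD, n = 4), DMSO libraries 0.203 ± 0.0142% and PlaB libraries 0.0731 ± 0.00522%, with no overlap between conditions. Of all T>C conversions on miRNAs, the cluster held 16.5 ± 1.63% in Control, 13.5 ± 2.45% in DMSO and 8.21 ± 1.48% in PlaB. These sums are dominated by miR-92a-3p, with 25275 of the 27174 conversions of the members in DMSO. The other 7 members alone gave 0.0412 ± 0.00354% for Control, 0.259 ± 0.0461% for DMSO and 0.102 ± 0.0196% for PlaB. These rates are raised by the passenger arm miR-17-3p. It held 466 of the 1899 conversions of the 7 in DMSO, on only 6497 covered T positions, and 101 of 419 in PlaB.

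**Figure D2:**
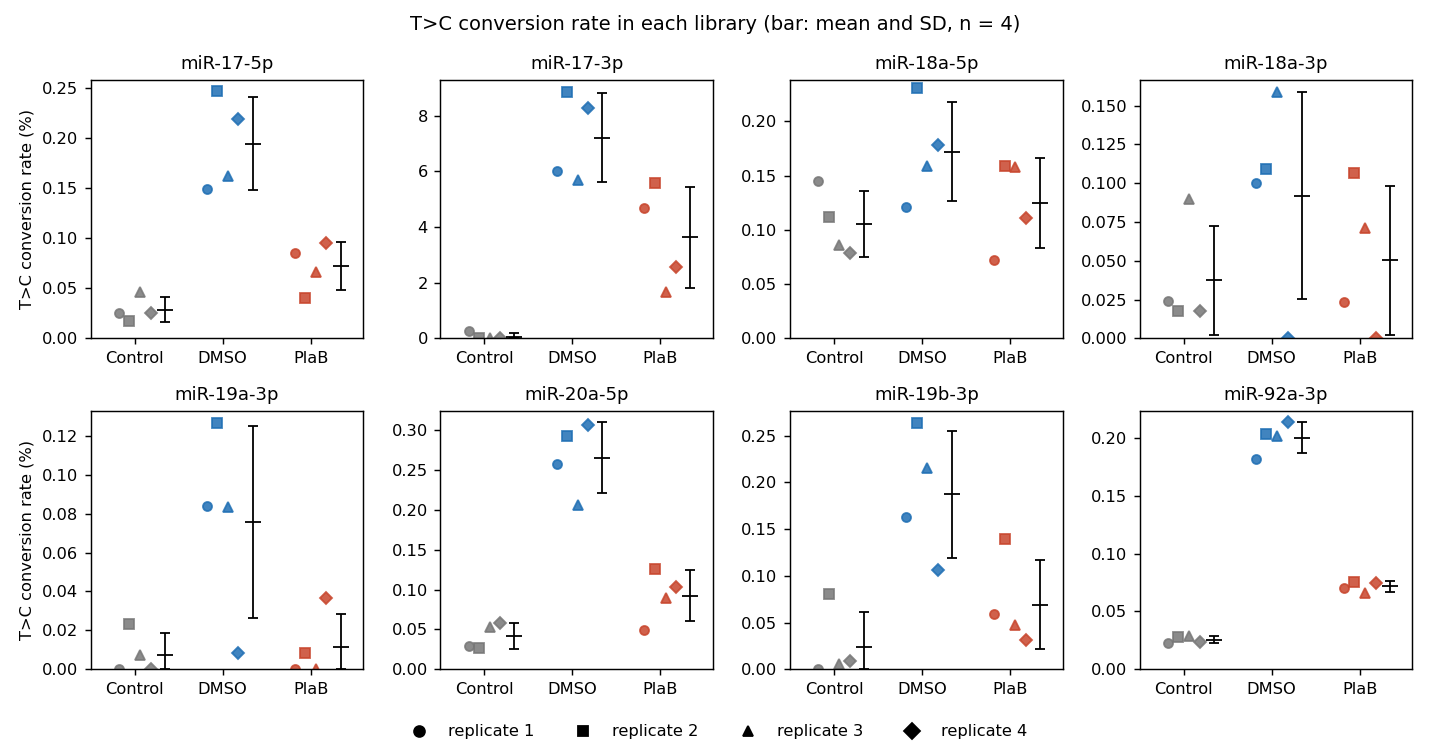
T>C conversion rate in percent of the 8 members in each library, 1 panel per member with its own axis from 0, marker shape for the replicate and a bar for the mean and SD of 4 libraries, whose lower end stops at 0. DMSO libraries lie above all PlaB libraries for miR-17-5p, miR-17-3p, miR-20a-5p and miR-92a-3p, and the axis of miR-17-3p reaches 8.85% where no other member exceeds 0.306%.

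For 6 of the 8 members the DMSO rate exceeded that of Control, against 77.5% of all miRNAs tested, in edgeR's quasi-likelihood test on conversions with sequenced T positions as offset. For 5 of 8 each DMSO library was above each Control library, compared with 65.7% of all tested. The median log2 fold change over the members was 2.81, against 3.15 over all tested miRNAs. With PlaB, 4 of the 8 members had a lower rate than in DMSO (37.1% of all tested). All 8 log2 fold changes were negative, as were 145 of the 178 over all tested. The median of the 8 was -1.42, against -1.16 over all tested. In 4 of 8 each PlaB library was below each DMSO library, as for 40.4% of all tested. Relative to Control, the PlaB rate was higher for 4 of 8 members (52.2% of all tested) and without overlap for 2 of 8 (38.8%).

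miR-92a-3p, read most deeply, had the smallest spread. Its rates were 0.0227, 0.0282, 0.0286 and 0.0231% in Control replicates 1 to 4, 0.182, 0.203, 0.201 and 0.214% in DMSO and 0.0705, 0.0755, 0.0656 and 0.0744% in PlaB. The 3 conditions did not overlap. The rate rose in DMSO against Control by 2.96 ± 0.15 on the log2 scale (SE, edgeR adjusted p = 5.42e-21). From DMSO to PlaB it fell by 1.48 ± 0.15 (adjusted p = 4.41e-11), which is 2.80-fold, and stayed above Control (1.48 ± 0.15, adjusted p = 9.82e-12).

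Both members of the miR-17 family, guides that repress cell cycle inhibitors, were labelled and then lower with PlaB. miR-17-5p had rates of 0.0256, 0.0169, 0.0460 and 0.0252% in Control, 0.149, 0.247, 0.163 and 0.219% in DMSO and 0.0856, 0.0408, 0.0662 and 0.0948% in PlaB. The highest PlaB library was below the lowest DMSO library, while PlaB replicate 2 lay within the range of Control. In that library only 11 conversions were counted for 16 converted reads. Converted reads made up 0.296% of its miR-17-5p reads, against at most 0.230% in Control. In PlaB against DMSO the rate fell by 1.43 ± 0.40 on the log2 scale (edgeR adjusted p = 0.00406), and the adjusted p was 0.0511 without DMSO replicates 1 and 2. Against Control it rose by 2.77 ± 0.44 in DMSO (adjusted p = 3.62e-07) and by 1.34 ± 0.45 in PlaB (adjusted p = 0.0118).

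miR-20a-5p had the highest mean DMSO rate of the guides, although its range overlapped with that of miR-92a-3p. Control libraries had 0.0292, 0.0271, 0.0532 and 0.0581%, DMSO libraries 0.258, 0.293, 0.206 and 0.306% and PlaB libraries 0.0498, 0.126, 0.0898 and 0.104%. DMSO stood clear of both other conditions, and PlaB replicate 1 overlapped with Control. In PlaB against DMSO the rate fell by 1.51 ± 0.33 on the log2 scale (edgeR adjusted p = 0.000349), a 2.85-fold change. It was above Control in DMSO (2.64 ± 0.35, adjusted p = 9.35e-09) and in PlaB (1.13 ± 0.36, adjusted p = 0.00783).

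The miR-19 family rested on fewer conversions. For miR-19b-3p the rates were 0, 0.0801, 0.00537 and 0.00842% in Control, 0.163, 0.264, 0.216 and 0.107% in DMSO and 0.0587, 0.139, 0.0477 and 0.0315% in PlaB. Replicate 2 was the highest library within each of the 3 conditions, and PlaB replicate 2 overlapped with DMSO. The rate rose in DMSO against Control (2.86 ± 0.64, edgeR adjusted p = 0.000127). Its log2 fold change in PlaB against DMSO was -1.42 ± 0.58, with an adjusted p of 0.0502. With the replicate block this became -1.65 with an adjusted p of 0.0203. Between PlaB and Control the log2 fold change was 1.44 ± 0.67 (adjusted p = 0.0654, and 0.0239 with the replicate block). Without Control replicate 2 it was 3.59 (adjusted p = 0.000348).

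miR-19a-3p had the lowest mean DMSO rate of the members, but overlapped with miR-18a-3p, which was higher in 2 of 4 DMSO libraries. It had 0, 4, 1 and 0 conversions in Control, 16, 30, 13 and 1 in DMSO and 0, 1, 0 and 4 in PlaB. The rates in DMSO were 0.0839, 0.127, 0.0837 and 0.00826%, so that DMSO replicate 4 lay within the range of the other conditions. The rate rose in DMSO against Control (3.00 ± 1.07 on the log2 scale, edgeR adjusted p = 0.0117), but not without DMSO replicates 1 and 2 (adjusted p = 0.126). Its decrease in PlaB against DMSO, -2.62 ± 1.07, was close to the threshold (adjusted p = 0.0486). With the replicate block the adjusted p was 0.123. With DESeq2 it was 0.0641 and with the miRNAs kept by filterByExpr 0.0821. The call was also lost without DMSO replicate 1, 2 or 3 or PlaB replicate 1, 2 or 3, left out singly, with adjusted p between 0.0756 and 0.156. The difference between PlaB and Control, 0.37 ± 1.26, did not pass (adjusted p = 0.866).

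Neither arm of miR-18a passed the test of labelling above Control. miR-18a-5p, which shares its seed with no other tested miRNA, already had a rate of 0.145, 0.112, 0.0863 and 0.0782% in Control, the 7th highest Control rate of the 178 miRNAs. In DMSO it was 0.121, 0.230, 0.158 and 0.178% and in PlaB 0.0724, 0.158, 0.158 and 0.111%. The 3 conditions overlapped. The log2 fold change was 0.71 ± 0.39 for DMSO against Control (edgeR adjusted p = 0.0941) and -0.47 ± 0.40 for PlaB against DMSO (adjusted p = 0.371), although PlaB was lower than DMSO in each of the 4 experiments. Its passenger arm miR-18a-3p had only 7 conversions in Control, 25 in DMSO and 7 in PlaB, and no comparison passed (adjusted p = 0.246 and 0.529 for the same contrasts).

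miR-17-3p, the passenger arm of the miR-17 hairpin, stood apart from the other members. Its rates in DMSO were 5.99, 8.85, 5.67 and 8.29%, the 2nd highest mean of the 178 miRNAs, where the median miRNA had 0.186%. In PlaB they were 4.70, 5.56, 1.68 and 2.55%. Control had 3 conversions, all in replicate 1. Each 4SU library was far above each Control library, and each PlaB library was below each DMSO library, by a small margin for PlaB replicate 2. Pooled over libraries, the rate in DMSO was 105 times that in Control, with an exact 95% counting interval of 35.6 to 510. In PlaB it was 51.1 times that in Control (17 to 252). The log2 fold change in PlaB against DMSO was -0.999 ± 0.43, a 2.00-fold lower rate, with an edgeR adjusted p of 0.0581. The replicate block gave -1.12 and an adjusted p of 0.0419. The two-sided exact permutation test of 4 rates against 4 gave p = 0.0286, the smallest it can give.

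**Figure D3:**
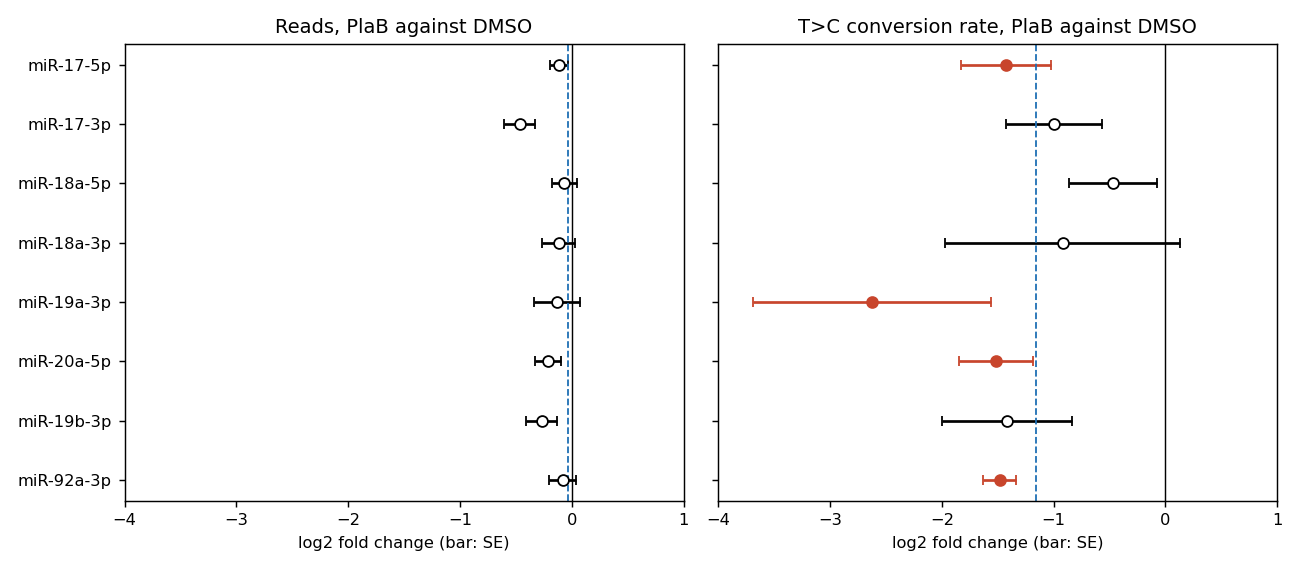
Log2 fold change of PlaB against DMSO for reads (left) and T>C conversion rate (right) of the 8 members, with SE as bars, filled red where the edgeR adjusted p was under 0.05 and a dashed line at the median of the 178 miRNAs tested. Reads lie between -0.47 and -0.07 and rates between -2.62 and -0.47.

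In DMSO, 25.1 ± 5.25% of miR-17-3p reads carried a T>C conversion (SD, n = 4), compared with 0.858 ± 0.186% of miR-17-5p reads from the other arm of the same hairpin, although both arms hold 5 U. Converted miR-17-3p reads held 1.42 conversions each in DMSO and 1.44 in PlaB, against 1.12 for miR-17-5p and 1.01 for miR-92a-3p in DMSO. The 5p arm had 26.7 ± 2.01 times as many reads as the 3p arm in DMSO, 28.0 ± 5.40 times in Control and 34.3 ± 5.18 times in PlaB. Counted in conversions, the order turned. In DMSO miR-17-3p had 143, 180, 63 and 80 conversions and miR-17-5p 96, 123, 47 and 62, so the 3p arm was higher in all 4 libraries, with a 5p to 3p ratio of 0.719 ± 0.0497. In PlaB the sums were 101 for miR-17-3p and 71 for miR-17-5p.

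The other hairpins with both arms measured kept the order of their reads. miR-20a-5p had 614 conversions in DMSO and its passenger miR-20a-3p 54, with read ratios of 29.0 ± 4.54. miR-18a-5p had 152 and miR-18a-3p 25. miR-92a-3p had 25275 conversions, and its passenger miR-92a-1-5p had 642.

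The arms of the 6 hairpins that are not members, from a list chosen for their place in the cluster, were miR-92a-1-5p, miR-20a-3p, miR-19b-1-5p and miR-19a-5p. Of these, miR-92a-1-5p and miR-20a-3p passed the filter. miR-92a-1-5p was read at 729, 456, 643 and 685 CPM in Control, 169.6, 115, 161 and 182 CPM in DMSO and 115, 54.6, 85.3 and 127 CPM in PlaB. Both 4SU conditions lay below every Control library. Its reads fell by 1.98 ± 0.23 on the log2 scale in DMSO against Control (edgeR adjusted p = 4.42e-05), a 3.96-fold decrease, and fell by 2.72 ± 0.24 in PlaB against Control (adjusted p = 3.02e-06). The difference between PlaB and DMSO did not pass (-0.73 ± 0.23, adjusted p = 0.223). The guide miR-92a-3p of the same hairpin had 220 ± 25.9 times as many reads in Control, 921 ± 181 times in DMSO and 1525 ± 462 times in PlaB.

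miR-92a-1-5p was also strongly labelled. It had rates of 5.47, 6.13, 5.46 and 6.07% in DMSO, the 3rd highest mean after that of miR-17-3p, and 0.262, 2.51, 3.03 and 1.42% in PlaB, with 6 conversions in Control. In PlaB against DMSO its rate fell by 1.73 ± 0.43 on the log2 scale (edgeR adjusted p = 0.00124), and no library of PlaB overlapped with DMSO. None of its reads mapped to more than 1 place, so they belong to MIR92A1 on chromosome 13. miR-20a-3p was read at 141, 125, 125 and 164 CPM in Control, 119, 96.8, 114 and 86.4 CPM in DMSO and 84.7, 60.6, 63.4 and 82.2 CPM in PlaB. The conditions did not overlap, although DMSO replicate 4 lay close to the highest PlaB library. Its reads fell by 0.93 ± 0.14 on the log2 scale in PlaB against Control (adjusted p = 0.000505), while those of DMSO against Control (-0.41 ± 0.14, adjusted p = 0.114) and PlaB against DMSO (-0.52 ± 0.14, adjusted p = 0.121) did not pass. With a mean of 105 CPM over all libraries, miR-20a-3p met the filter only through its Control reads (139 CPM, against 104 in DMSO and 72.7 in PlaB). Its decrease from Control is therefore not independent of the filter. The call was also made in the fit without a filter on low counts. Its DMSO rate was 0.779 ± 0.236%, pooled 52.5 times that of Control with a counting interval of 9.03 to 2111, since Control had 1 conversion. miR-19a-5p and miR-19b-1-5p had 45 and 141 reads in all 12 libraries together.

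**Figure D4:**
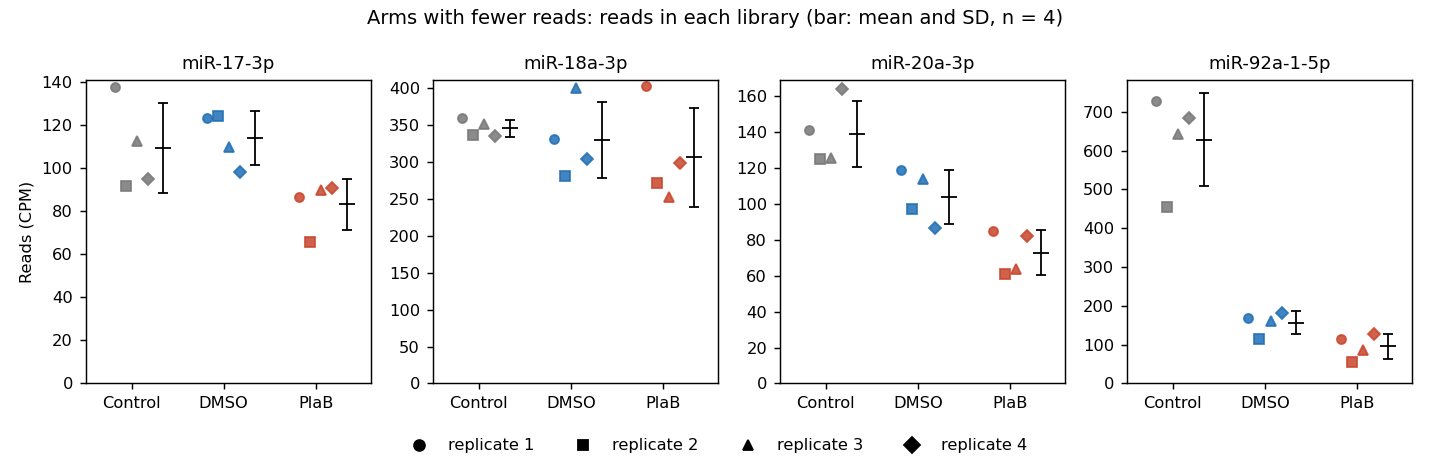
Reads in CPM of miR-17-3p, miR-18a-3p, miR-20a-3p and miR-92a-1-5p in each library on axes from 0, with marker shape for the replicate and a bar for the mean and SD of 4 libraries. miR-92a-1-5p is at 456 to 729 CPM in Control and at most 182 CPM in both 4SU conditions, and miR-20a-3p at 125 to 164 CPM in Control and at most 119 CPM in the others.

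How much of the labelling was left with PlaB was described by the PlaB/DMSO ratio, the mean PlaB rate minus the mean Control rate divided by the same difference for DMSO. In cluster order it was 0.262 for miR-17-5p, 0.499 for miR-17-3p, 0.0535 for miR-19a-3p, 0.225 for miR-20a-5p, 0.280 for miR-19b-3p and 0.263 for miR-92a-3p, the 6 members labelled in DMSO. Their median was 0.262, against 0.331 (quartiles 0.189 and 0.602) over all 138 miRNAs labelled in DMSO. By experiment the ratio of miR-92a-3p ranged from 0.228 to 0.287, that of miR-20a-5p from 0.0366 to 0.334, that of miR-17-5p from 0.0566 to 0.476 and that of miR-17-3p from 0.288 to 0.781. The 0.0566 of miR-17-5p came from experiment 2, where its PlaB library had fewer conversions than converted reads. For miR-19b-3p the ratio ranged from 0.0965 to 0.481 by experiment, and it was 0.137 without PlaB replicate 2 and at most 0.356 with any other single library left out. For miR-19a-3p it ranged from -0.0994 to 42.01, where experiment 4 had 1 conversion in DMSO and 0 in Control. miR-92a-1-5p had a ratio of 0.310 (0.0446 to 0.553 by experiment), next to 0.263 for the opposite arm of its hairpin.

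Whether members changed by different amounts was tested on the log2 ratio of their rates within a library, between 4 PlaB and 4 DMSO libraries, by two-sided exact permutation, with 7 pairs compared. For the arms miR-17-3p and miR-17-5p the ratio differed between conditions by 0.35 ± 0.56 (SE, exact p = 0.657, adjusted p = 0.971). Compared with miR-92a-3p, miR-17-5p differed by 0.04 ± 0.31 (exact p = 0.857), miR-20a-5p by -0.08 ± 0.29 (exact p = 0.743), miR-19b-3p by -0.03 ± 0.51 (exact p = 0.971) and miR-19a-3p by -0.93 ± 1.04 (exact p = 0.429). The adjusted p of each was 0.971, and likewise for the arms of miR-18a. The largest difference was that of miR-18a-5p, a member not labelled above Control, from miR-92a-3p, 1.02 ± 0.31 (exact p = 0.0571, adjusted p = 0.4). Control rates were not subtracted in these pairs, and that of miR-18a-5p was 0.105% on average. With Control subtracted, its PlaB/DMSO ratio was 0.293 (-2.14 to 0.986 by experiment), next to 0.263 for miR-92a-3p. No pair passed.

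The paralogous clusters hold miRNAs with the same seeds. Of the 10 mature miRNAs of the miR-106a-363 cluster on chromosome X, which carries the second copies of miR-19b-3p and miR-92a-3p, 0 passed the filter. Without miR-106a-5p, the other 9 arms summed to between 5.02 and 24.6 CPM in a library, and 4 of the 10 had no read in any library. miR-106a-5p itself was read at 3.86 to 82.8 CPM, of which 67.3% to 98.5% mapped to more than 1 place. It differs from miR-17-5p by C1A and from miR-20a-5p by U1A and U12C. In the miR-106b-25 cluster on chromosome 7, 6 of 6 miRNAs were tested. In all 6 the DMSO rate passed the test against Control, and 1 of 6, miR-93-5p, had a lower rate in PlaB than in DMSO (log2 fold change -0.97, edgeR adjusted p = 0.00322). The median log2 fold change of these 6 was -0.57, compared with -1.42 for the 8 members of the miR-17-92a cluster, a difference that was not tested.

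Likeness to miR-17-5p and miR-92a-3p was measured as the root mean square difference of centred log2 rates over the 12 libraries. Outside the cluster, the miRNAs most like miR-17-5p were miR-30c-5p (0.45), miR-194-5p (0.48) and miR-27b-3p (0.50), next to 0.43 for miR-92a-3p within it. The other 6 members were less like it than these 3, from 0.56 for miR-20a-5p to 2.10 for miR-17-3p. Those most like miR-92a-3p were miR-194-5p (0.25), miR-30d-5p (0.26) and miR-122-5p (0.27), while the members ranged from 0.43 for miR-17-5p to 1.98 for miR-17-3p. The centring leaves out the level of labelling. These values also depend on the read depth of each miRNA.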

How the data were processed

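Members, lists and tests were chosen with earlier results of these data known. Per the methods, the authors trimmed reads with Trim Galore, kept those up to 30 nt, clipped 4 bases of random adapter at each end, mapped to GRCh38 and counted on miRBase mature coordinates with SLAM-DUNK (nf-core SLAMseq), with polymorphism masking at an allele fraction of 0.4 and without a mapping quality filter. The methods also set a limit on mismatches per read, over which, for miRNA reads, the default mapping integrity filter is said to prevail. How this filter bears on reads with several conversions was not tested. The deposited counts are reads, converted reads, multi-mapping reads, T>C conversions and covered T positions. The authors' CPM divides reads by the library total, and the deposited T>C conversion rate is a fraction, shown here as a percent. Both were recomputed and matched.

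The 178 miRNAs with a mean CPM above 100 were fitted with edgeR 4.0.16 (R 4.3.3), with 3 conditions in 1 quasi-likelihood fit, TMM factors for reads, log covered T positions as offset for conversions, and Benjamini-Hochberg adjustment over 178 at 0.05. The study required over 100 CPM in every library, which would leave out miR-17-3p. SE is the log2 fold change divided by the root of F. Pair tests added 0.5 conversions. Permutation tests and ratios used Python 3.11.15, numpy 2.4.6, pandas 2.3.3 and scipy 1.17.1, and plots matplotlib 3.10.9. Scripts were tested on simulated data. Named miRNAs are the members, the other arms, the paralogous clusters, marker lists and the 3 most alike.

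Replicate numbers were taken to pair libraries, since the methods describe 4 independent experiments with all conditions. Across conditions, log2 CPM deviations correlated with a median r of 0.462 (-0.138 to 0.842) for the same number and -0.177 for different numbers, and rates with 0.000723 and -0.0502. Alternatives were RLE factors, DESeq2 1.42.0, other filters, converted reads, unique reads, the replicate block, 8 libraries alone and libraries left out. Depth limits rates: miR-92a-3p had 12918007 covered T positions in DMSO and miR-17-3p 6497. Intervals treat conversions as independent counts and leave out the spread between libraries. The methods describe no collapsing of duplicate reads, so copies of a molecule can count more than once and the intervals may be too narrow.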

Additional observations from a re-analysis of the deposited data

Results flagged for a closer look

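In 4 of 48 groups of 4 libraries, reads or rates of a member, 1 library lay apart from the other 3 by Dixon's criterion. For normally distributed values, chance alone meets it in about 1 group in 20. The flagged Control rates rest on 3 conversions for miR-17-3p, 7 for miR-18a-3p and 21 for miR-19b-3p. Rates from so few counts are not such values, so 4 of 48 cannot be set against 1 in 20. The reads of miR-17-3p were lowest in PlaB replicate 2, at 65.7 CPM, with the next library at 86.7 CPM. The rate of miR-17-3p was highest in Control replicate 1, at 0.262%, and 0 in the other Control libraries. The rate of miR-18a-3p was highest in Control replicate 3, at 0.0899%, with the next at 0.0240%. The rate of miR-19b-3p was highest in Control replicate 2, at 0.0801%, with the next at 0.00842%.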

How the results depend on the processing

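The call of 0 members in reads held under every alternative except the replicate block, where 1 member, miR-19b-3p, passed for DMSO against Control. Over all miRNAs tested, the block moved the read calls from 11 to 33 for DMSO against Control and from 2 to 6 for PlaB against DMSO, without a filter on low counts they were 43, 48 and 5 for DMSO against Control, PlaB against Control and PlaB against DMSO, and with filterByExpr 32, 36 and 2. With miRNAs over 100 CPM in every library PlaB against Control gave 6 calls in place of 12. Without DMSO replicates 1 and 2 together, the members with a lower rate in PlaB than in DMSO were 2, miR-20a-5p and miR-92a-3p, in place of 4. Such calls over all miRNAs tested were 44 in place of 66, and read calls for DMSO against Control 6 in place of 11. Leaving out 1 library at a time gave rate calls for 3 to 6 members in PlaB against DMSO. Over all miRNAs tested these calls were 50 to 77. For DMSO against Control there were 6 members, and 127 to 140 calls over all tested (138 with all libraries). For PlaB against Control there were 4 to 5 members, and 82 to 95 calls over all tested (93 with all libraries). miR-20a-5p and miR-92a-3p kept their calls under all 19 alternatives, with adjusted p of at most 0.00479 and 6.37e-08 in PlaB against DMSO. The block changed no other call of a member than those given with the results. miR-17-3p and miR-19b-3p, short of the threshold for PlaB against DMSO, passed in 9 of 18 and 10 of 19 alternatives, and miR-19a-3p, past it, in 9 of 19. Values with a wide error changed sign when a library was left out. The log2 fold change of PlaB against Control ranged from -1.27 to 1.76 for miR-19a-3p and from -0.33 to 1.21 for miR-18a-3p, and their PlaB/DMSO ratios from -0.0706 to 0.12 and from -0.109 to 0.543. Pair differences ranged from -0.15 to 0.64 for miR-17-3p and miR-17-5p, from -1.02 to 0.46 for the miR-18a arms, and, against miR-92a-3p, from -0.0879 to 0.312 for miR-17-5p, from -0.23 to 0.17 for miR-20a-5p and from -0.40 to 0.28 for miR-19b-3p, the last 0.0271 with 1 conversion added. None of these had passed a test. The cause was not tested. The fewest conversions, in the miR-18a-3p and miR-19a-3p libraries, limit these rates.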
